A study of Caenorhabditis elegans with 20 samples.

Results

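The genes followed here mark the *C. elegans* intestine and build its brush border. They are *elt-2*, *elt-7*, *act-5*, *ifb-2*, *ifc-2*, *ifd-1*, *ifp-1*, *erm-1*, *eps-8* and *nhx-2*. All were taken by name from the probe-to-gene table of the platform, which gives 13 probesets for these 10 genes of 16649 genes on the array, 3 for *eps-8*, 2 for *ifc-2* and 1 for each other gene, none of them assigned to a second gene. RNA of whole nematodes of strain DA1316 was hybridised to 20 Affymetrix arrays in 4 groups of 5, 100 ng/ml ivermectin (IVM) with 0.001% v/v DMSO, its control with 0.001% v/v DMSO, 1 µg/ml IVM with 0.01% v/v DMSO and its control with 0.01% v/v DMSO. All groups, controls included, carry *avr-14(ad1302)*, *avr-15* and *glc-1(pk54)*, mutations in 3 glutamate-gated chloride channel subunits that are targets of IVM, and the *avr-15* allele is *ad1250* in the labels but *vu227* in the methods. All worms were synchronised, kept at 20 °C on NGM plates with OP50 bacteria for 53 hr and then exposed for 4 hr. The sample names call them adult and the design text L4. No wild type strain was analysed here, so nothing below compares the mutants with normal worms.

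The intestine of *C. elegans* is a tube of large epithelial cells whose identity is set and kept by GATA transcription factors. Its apical face bears microvilli with actin cores, under which a sheet of intermediate filaments, the terminal web or endotube, surrounds the lumen. Transporters in the microvillar membrane take up peptides together with protons, and sodium-proton exchange at the same membrane keeps the cells from turning acid. Since whole worms were used, a smaller share of intestinal RNA in the total and less RNA of a gene per intestinal cell cannot be told apart in any value below.

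Levels are log2 probeset intensities and differ between probesets for reasons of probe design, so no gene's level was set against that of another gene. The worms of each replicate were split between IVM and control plates, so changes are means of 5 within-pair differences, IVM minus control, and a probeset was called where its adjusted p from limma was under 0.05 over 20563 probesets. The adult cuticle collagen gene *col-19* was at 7.13 and 6.54 in the control and IVM arrays of replicate 2 at 1 µg/ml against 11.4 to 12.1 on the other arrays, and the yolk protein gene *vit-2* was at 5.18 and 4.36, also far below the rest. Replicate 4 at 100 ng/ml stood apart in another way, with the metallothionein gene *mtl-1* lower with IVM (6.59) than in its control (7.89), whereas it was higher with IVM in the 4 other pairs of that dose and in all 5 at 1 µg/ml. Whether the control and IVM labels of this pair were exchanged was not tested, and an exchange would turn the sign of its differences. Calls of members are given with and without these pairs, while for uncalled values the fits without them are given only in part. The description text of the samples names another drug (ABZ) on 7 arrays and another DMSO content on all 20, which conflicts with the other labels and was not used.

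At 1 µg/ml IVM, 2 of the 10 genes fell, *act-5* and *nhx-2*, and none rose. Thus 2 of 13 probesets were called, where 3.48% of all probesets were called in either direction, 2.11% as higher and 1.37% as lower. *act-5* encodes the actin of the intestinal microvilli. Its 5 control arrays, replicates 1 to 5, had log2 levels of 11.17, 11.78, 10.45, 10.73 and 10.28 (10.88 ± 0.60, SD, n = 5). The IVM arrays of the same replicates had 10.50, 10.74, 9.02, 8.71 and 9.87 (9.77 ± 0.89, SD, n = 5). Every IVM array was below its own control, while the groups overlapped because replicates 1 and 2 started high. The log2 change was -1.11 (SE 0.21, 95% interval -1.59 to -0.64), or 2.16-fold lower, with an adjusted p of 0.0253 from limma. The pairs ranged from -2.03 in replicate 4 to -0.41 in replicate 5. The call was lost when single pairs were left out, with an adjusted p of 0.0692 without replicate 1, 0.0581 without replicate 3 and 0.0605 without replicate 4. The change stayed between -1.29 and -0.89. Without replicate 2, which was low in *col-19* and *vit-2*, the change was -1.13 (SE 0.23, adjusted p = 0.0416 from limma).

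*nhx-2* encodes the sodium-proton exchanger of the apical intestinal membrane. The control arrays of replicates 1 to 5 had log2 levels of 6.80, 8.19, 6.23, 6.38 and 6.16 (6.75 ± 0.84, SD, n = 5). The IVM arrays had 6.11, 7.55, 5.33, 4.69 and 5.23 (5.78 ± 1.11, SD, n = 5). All 5 IVM arrays were again below their own controls, and replicate 2 was the highest in both groups, so that its IVM array exceeded 4 of the 5 controls. *nhx-2* changed by -0.97 (SE 0.15, 95% interval -1.30 to -0.63), or 1.96-fold lower, with an adjusted p of 0.0110 from limma. Its call held whichever replicate was left out, with changes of -1.05 to -0.79 and adjusted p of 0.0115 to 0.0464. Both *act-5* and *nhx-2* lost their calls when the pairing was ignored (adjusted p of 0.784 and 1.00 from limma). Of all probesets, 7.91% were lower in 5 of 5 pairs, as were these 2 of 13.

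**Figure D1:**
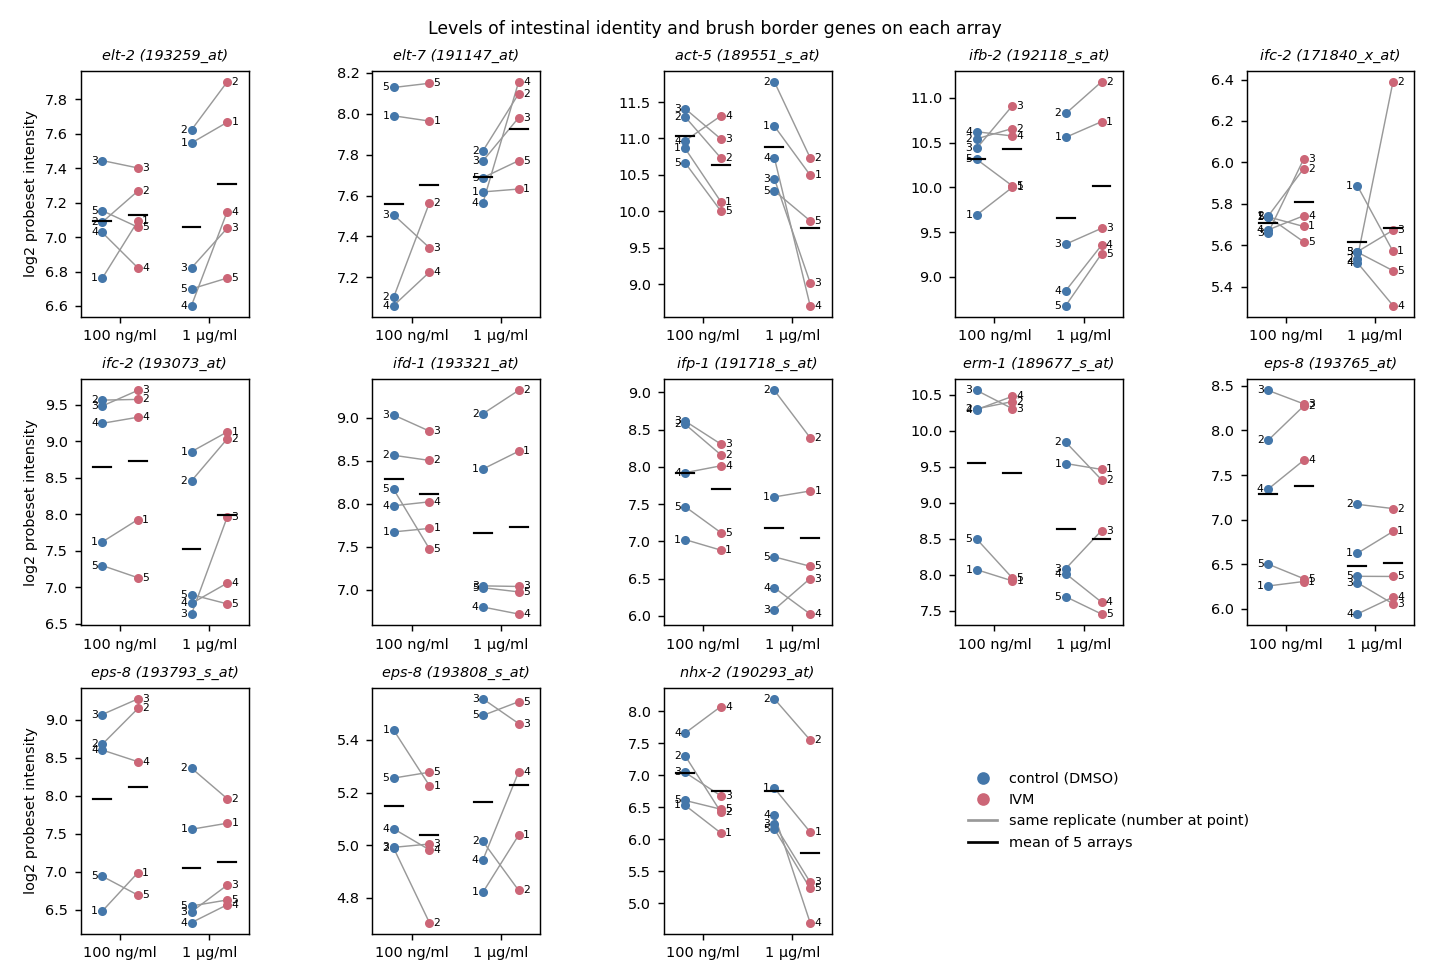
Log2 intensity of each of the 13 probesets (panels) on the 20 arrays, controls in blue and IVM in red, with a grey line joining the arrays of 1 replicate, the replicate number at each point and a black bar at the mean of 5 arrays. In *act-5* and *nhx-2* all 5 lines fall at 1 µg/ml, from 10.88 to 9.77 and from 6.75 to 5.78 on average. In *erm-1*, *ifc-2* (193073_at) and *eps-8* (193793_s_at) the highest and lowest replicates of a group lie much further apart than the arrays of most pairs. The steepest of these lines is *ifc-2* (193073_at) in replicate 3 at 1 µg/ml, which rises by 1.33.

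The GATA factors did not pass the test at 1 µg/ml. *elt-2*, the factor that keeps intestinal genes expressed from the early embryo through adult life, had log2 levels of 7.55, 7.62, 6.82, 6.60 and 6.70 in the controls and of 7.67, 7.90, 7.05, 7.15 and 6.76 with IVM. It was slightly higher with IVM in 5 of 5 pairs, with a change of 0.25 (SE 0.09, adjusted p = 0.218 from limma). *elt-7*, which acts alongside *elt-2*, lay between 7.56 and 7.82 in the controls and between 7.63 and 8.16 with IVM. Its change was 0.24 (SE 0.10, adjusted p = 0.289 from limma), also with 5 of 5 pairs higher, and was 0.15 without replicate 4. The 95% intervals, 0.04 to 0.45 for *elt-2* and 0.01 to 0.46 for *elt-7*, lay above 0.

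The 4 intermediate filament genes of the terminal web did not pass the test either. *ifb-2*, the filament protein with which the other intestinal filament proteins assemble, had levels of 10.56, 10.83, 9.37, 8.85 and 8.68 in the controls and of 10.73, 11.18, 9.54, 9.35 and 9.26 with IVM. It was higher in 5 of 5 pairs, with a change of 0.36 (SE 0.09, 95% interval 0.15 to 0.56), and an adjusted p of 0.0759 from limma. This was the member closest to a call, and it was called when the arrays were quantile normalized again (change 0.38, adjusted p = 0.0379 from limma). *ifc-2* was higher in 4 of 5 pairs by 193073_at (0.47, SE 0.18, adjusted p = 0.251), or 0.25 without replicate 3, and differed by 0.07 (SE 0.16) by 171840_x_at, whose suffix marks probes that may also bind other transcripts. *ifd-1* and *ifp-1* had changes of 0.07 (SE 0.09) and -0.12 (SE 0.14). In all, 3 of 13 probesets were higher in 5 of 5 pairs (*elt-2*, *elt-7* and *ifb-2*), against 7.29% of all probesets.

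The genes of the microvillar cortex were not called, and *eps-8* lay near 0. *erm-1*, the ezrin-radixin-moesin protein that ties the apical membrane to actin, changed by -0.14 (SE 0.14, 95% interval -0.47 to 0.19). It was lower in 4 of 5 pairs, with replicate 3 at 0.53 against the others. Without replicate 3 its change was -0.31 (SE 0.10, adjusted p = 0.162 from limma). Without replicate 2, the pair low in *col-19* and *vit-2*, it was -0.05 (SE 0.15, adjusted p = 0.942 from limma). *eps-8*, an actin capping and bundling protein of the microvilli, had changes of 0.03 (SE 0.09), 0.07 (SE 0.11) and 0.06 (SE 0.10) by 193765_at, 193793_s_at and 193808_s_at. Their 95% intervals lay between -0.19 and 0.32, so a change of the size seen in *act-5* is outside them. The median change of the 13 probesets was 0.07, and that of all probesets was -0.01. At an unadjusted p under 0.05, 6 of 13 passed, 4 higher and 2 lower, where 15.6% of all probesets did (8.05% higher and 7.55% lower).

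At 100 ng/ml none of the 13 probesets was called, and 0% of all probesets were. *act-5* control arrays of replicates 1 to 5 had levels of 10.86, 11.30, 11.41, 10.97 and 10.67, and the IVM arrays had 10.13, 10.73, 10.99, 11.31 and 10.01. Its change was -0.41 (SE 0.15, 95% interval -0.74 to -0.07, adjusted p = 0.936 from limma), with 4 of 5 pairs lower and replicate 4 higher by 0.34. Without that replicate, *act-5* changed by -0.59 (SE 0.10, adjusted p = 0.0157 from limma) and was the only called member, where 313 probesets were called in all (1.52%, and 0.545% as lower). Leaving out replicate 1, 2, 3 or 5 instead gave 0 called probesets. Replicate 4 was set apart by its response to IVM and was the only *act-5* pair that rose. Its removal therefore had to lower the change, and the call without it is no independent support. *nhx-2* had control levels of 6.53, 7.30, 7.04, 7.66 and 6.60 and IVM levels of 6.09, 6.42, 6.68, 8.07 and 6.47. Replicate 4 again ran opposite to the other 4 pairs, and the change was -0.28 (SE 0.16, adjusted p = 0.936 from limma), or -0.45 without replicate 4 (adjusted p = 0.134). *ifp-1* was the other member with an unadjusted p under 0.05, at -0.22 (SE 0.09, adjusted p = 0.936), so 2 of 13 had one against 4.35% of all probesets. The changes of the other 10 probesets lay between -0.17 and 0.16.

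**Figure D2:**
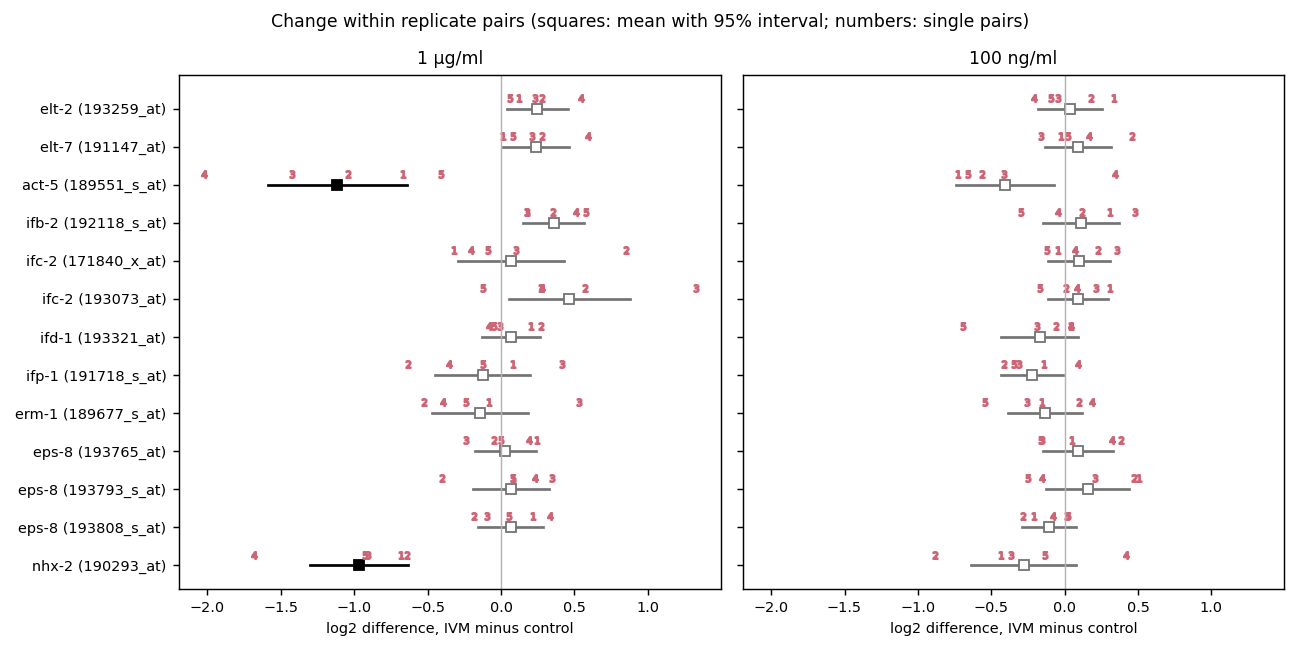
Log2 change, IVM minus control, of each probeset at 1 µg/ml (left) and 100 ng/ml (right), with the mean of 5 pairs as a square, its 95% interval as a line, and red numbers for single replicate pairs. Filled black squares mark an adjusted p under 0.05, which are *act-5* (-1.11) and *nhx-2* (-0.97) at 1 µg/ml and none at 100 ng/ml, where replicate 4 lies at the right end of both genes.

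The change at 1 µg/ml was then set against that at 100 ng/ml within 1 fit over all arrays. *act-5* was lower at the higher dose by -0.71 (SE 0.28, 95% interval -1.32 to -0.10) and *nhx-2* by -0.69 (SE 0.24, 95% interval -1.20 to -0.18). Neither passed the test after adjustment, with unadjusted p of 0.0264 and 0.0123 and adjusted p of 0.722 and 0.698 from limma. These were the 2 of 13 with an unadjusted p under 0.05, against 6.79% of all probesets. With 1 replicate left out, the contrast ran from -0.88 to -0.48 for *act-5* and from -0.84 to -0.51 for *nhx-2*. Replicate 4 at 100 ng/ml was higher with IVM in both genes (0.34 and 0.41). Without it their changes at 100 ng/ml were -0.59 and -0.45, nearer to the -1.11 and -0.97 at 1 µg/ml. Since it was the only pair that rose in these genes, leaving it out had to lower both changes. No member was called, and 0.00486% of all probesets were, which is 1 probeset. The dose was given in separate experiments with different DMSO content, so dose, DMSO and experiment cannot be told apart.

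The controls of both experiments did not differ in any called probeset (0%), and 0 of 13 members had an unadjusted p under 0.05 against 10.9% of all probesets. Of the 9 probesets of the filament and cortex genes, 8 had lower means in the 1 µg/ml controls, from -1.12 (SE 0.60) in *ifc-2* (193073_at) and -0.91 (SE 0.60) in *erm-1* to -0.09 (SE 0.09) in *ifc-2* (171840_x_at), and *eps-8* by 193808_s_at was at 0.02 (SE 0.17). The SD within the control groups was 1.09 at 100 ng/ml and 1.05 at 1 µg/ml for *ifc-2* (193073_at), and 1.17 and 0.98 for *erm-1*, and the 95% intervals of all 9 differences held 0.

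Most of these genes had an SD between worm suspensions above the size of their mean change at 1 µg/ml. *act-5* (-1.11) and *nhx-2* (-0.97) did not. The level of a suspension was taken as the mean of its control and IVM array, which gives 10 values per probeset. IVM arrays and both experiments enter this SD, so it is not the same kind of measure as a change within pairs. The SD over the 10 suspensions was 1.15 for *erm-1*, 1.12 for *ifc-2* (193073_at), 1.05 for *eps-8* (193793_s_at), 0.91 for *ifp-1*, 0.84 for *ifd-1*, 0.83 for *eps-8* (193765_at) and 0.82 for *nhx-2*. These 7 of 13 probesets exceeded the 95th percentile of all probesets (0.79), and *ifb-2* with 0.72 exceeded the 90th (0.64), where the median of all probesets was 0.25. The 7 were brighter than 64% to 90.6% of probesets on average, and these percentiles were not matched for intensity. *act-5* had an SD of 0.59. The GATA factors were steadier, with 0.34 for *elt-2* and 0.32 for *elt-7*, and so were *eps-8* by 193808_s_at (0.25) and *ifc-2* by 171840_x_at (0.16), both of which have low intensities, with 40.2% and 50% of probesets lower on average.

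The same suspensions were high for most structural genes, with or without IVM. *erm-1* had suspension levels of 7.995, 10.36, 10.44, 10.39 and 8.23 in replicates 1 to 5 at 100 ng/ml and of 9.51, 9.58, 8.35, 7.82 and 7.58 at 1 µg/ml. The highest and lowest were 2.86 apart, while the median absolute difference between the arrays of a pair was 0.25. *ifc-2* (193073_at) had 7.77, 9.57, 9.59, 9.29 and 7.21 at 100 ng/ml and 8.99, 8.74, 7.30, 6.92 and 6.84 at 1 µg/ml. Thus replicates 2, 3 and 4 at the lower dose and 1 and 2 at the higher one were high in both genes. *eps-8* (193793_s_at) had 6.73, 8.91, 9.17, 8.52 and 6.81 and then 7.60, 8.16, 6.65, 6.45 and 6.59. *elt-7* did not share this order, with 7.98, 7.33, 7.43, 7.14 and 8.14 at 100 ng/ml and 7.62, 7.96, 7.88, 7.86 and 7.73 at 1 µg/ml, so that the 3 suspensions highest in *erm-1* were the lowest in *elt-7*.

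A similar order was seen in 2 body wall muscle genes. The body wall muscle myosin gene *unc-54* had suspension levels of 9.36, 12.05, 12.03, 11.87 and 9.76 at 100 ng/ml and of 10.62, 11.19, 9.13, 8.88 and 9.15 at 1 µg/ml. The paramyosin gene *unc-15* did the same, and over the 5 muscle genes listed the SD between suspensions ran from 0.14 to 1.30. Sums of a list are the log2 of its added unlogged intensities, so bright probesets weigh most. The muscle sum ran from 12.3 to 13.7 in the controls and in the IVM arrays at 100 ng/ml, from 11.9 to 13.1 in the controls at 1 µg/ml and from 12.2 to 13.3 with 1 µg/ml IVM. The sum of the 5 germline genes listed was also high in replicates 2 to 4 at 100 ng/ml, at 12.3 to 12.8 against 11.02 to 11.13 in replicates 1 and 5, but at 1 µg/ml replicate 2 was not, with 11.01 in the control and 10.62 with IVM. The neuron sum shared the order in part. Its replicates 1 and 2 were highest at 1 µg/ml (10.70 and 10.88 in the controls, 10.99 and 11.23 with IVM). At 100 ng/ml its replicates 2 and 3 were highest, while replicate 4 was lowest with IVM (10.46). The pharynx sum was also highest in replicates 2 and 3 at 100 ng/ml and in 1 and 2 with 1 µg/ml IVM (10.33 and 10.65). The hypodermis sum did not share the order at 1 µg/ml. It hides opposite moves in the control of replicate 2 there, with *col-19* at 7.13. In that array *dpy-7*, another gene of the list, was at 11.21, against 7.71 to 9.04 in the other controls of that dose. Replicate 4 had the lowest pharynx sum at 100 ng/ml (9.79 in the control and 9.88 with IVM), and replicate 2 had the lowest hypodermis sum with 1 µg/ml IVM (11.78). The 3′ minus 5′ difference of the actin control probesets, a sign of RNA integrity or labelling, was -0.27 to 0.46 at 100 ng/ml. At 1 µg/ml it was -0.52 and -0.41 in replicate 1, -0.03 and -0.08 in replicate 2 and 0.20 to 0.65 in replicates 3 to 5, so the actin difference ran with the order there. The Gapdh difference did not, with controls at -0.50 and -0.22 in replicates 1 and 2 and at -0.31 to -0.28 in replicates 3 to 5. That of ubiquitin overlapped, at 2.36 to 2.48 in replicates 1 and 2 and 2.36 to 2.82 in replicates 3 to 5. The part of worm stage, tissue content and RNA quality in these differences was not tested.

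**Figure D3:**
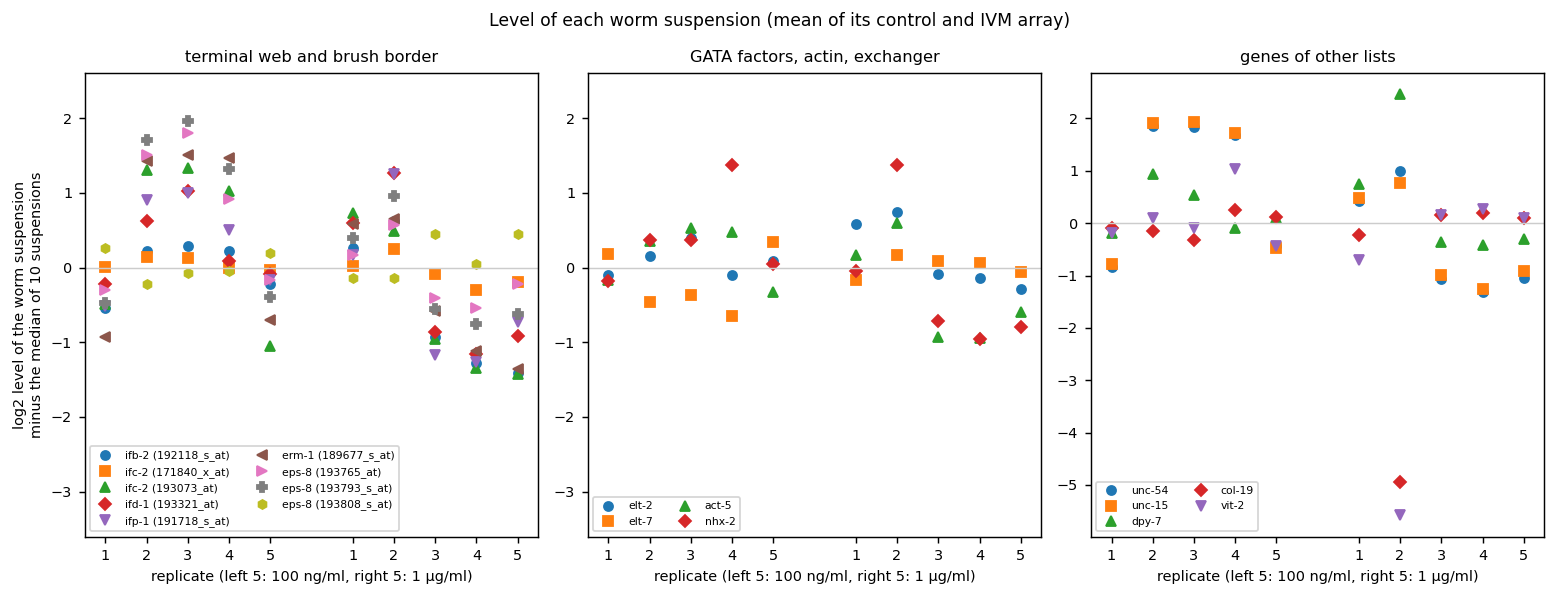
Log2 level of each of the 10 worm suspensions (mean of its control and IVM array) minus the median of the 10, for the terminal web, microvillar cortex and *eps-8* and *ifc-2* probesets (left), for *elt-2*, *elt-7*, *act-5* and *nhx-2* (middle) and for muscle, cuticle and yolk genes (right, on a wider axis). Replicates 2 to 4 of 100 ng/ml and 1 and 2 of 1 µg/ml are high in most structural genes and in *unc-54* and *unc-15*, and replicate 2 of 1 µg/ml is far below the rest in *col-19* and *vit-2*.

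Genes of the same structures outside the 10 were read from lists. Of 47 measured genes in 5 intestinal lists, 4 rose and 4 fell at 1 µg/ml, where 2.11% of all probesets rose and 1.37% fell. None was called at 100 ng/ml over all 5 pairs, as for all probesets (0%). The lists were chosen with earlier results of these data known and use the brightest probeset of each gene. Their counts beside the shares of all probesets are therefore a description and no test. In the filament network list, 2 of 5 genes fell, *ifd-2* (-0.61, SE 0.12, adjusted p = 0.0312 from limma), another intestinal filament gene, and *bbln-1* (-0.55, SE 0.08, adjusted p = 0.0102), which encodes a small coiled-coil protein that keeps the filament sheet in place. The call of *ifd-2* was lost without replicate 1, 2 or 4 (adjusted p of 0.124, 0.0712 and 0.104). *ifc-1*, *ifo-1* and *sma-5* of the same list had changes of 0.16, 0.08 and 0.18 and were not called, and neither was any of 5 measured filament genes of other tissues. The median of the list was 0.08.

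Of the apical membrane list, 1 of 10 genes fell and 1 rose. *pept-1*, the proton-coupled peptide transporter that works with *nhx-2*, fell by 0.71 (SE 0.12, adjusted p = 0.0196 from limma), and its adjusted p was 0.0636 without replicate 1. *nac-2*, a sodium-coupled dicarboxylate transporter, rose by 0.58 (SE 0.11, adjusted p = 0.0303) and lost its call without replicate 1, 3 or 4. Of 9 measured genes of the sodium-proton exchanger list, only *pbo-1* was called. It encodes a calcineurin-like protein that acts with the exchanger *pbo-4*, and it changed by -0.84 (SE 0.13, adjusted p = 0.0110), while *pbo-4* itself had 0.11 (SE 0.09). The *pbo-1* call was lost without replicate 1 or 4 (adjusted p of 0.0545 and 0.0504).

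*act-3* and the actin control probesets did not move with *act-5*. *act-3*, the only other actin gene with a probeset of its own among 4 listed, changed by 0.14 (SE 0.09, adjusted p = 0.502 from limma), and the 3 actin control probesets of the array had changes of 0.08 to 0.23, none of them called. The *act-5* probeset has the suffix s_at, which marks probes shared between transcripts, and the part of other actins in its signal was not tested. The same suffix is on the probesets of *ifb-2*, *ifp-1* and *erm-1*, on *eps-8* (193793_s_at and 193808_s_at) and on list genes such as *ifd-2*, *ges-1* and *pho-1*. The part of other transcripts in their signals was not tested either.

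Among 10 intestinal enzymes and storage proteins, *mtl-1*, a metallothionein, rose by 4.99 (SE 0.33, adjusted p = 0.000443 from limma), *ges-1*, the gut esterase, rose by 0.91 (SE 0.09, adjusted p = 0.00240), and *pho-1*, an intestinal acid phosphatase, fell by 1.26 (SE 0.20, adjusted p = 0.0130). The *pho-1* call was lost without replicate 1 or 4 (adjusted p of 0.0742 and 0.0521). Of 10 measured endoderm and intestinal transcription factors, *pqm-1*, a zinc finger protein, rose by 0.74 (SE 0.10, adjusted p = 0.00794) and the others were not called. No gene of 12 in the apical junction and polarity list was called, where 3.48% of all probesets were, and the changes lay between -0.06 and 0.27. None of 26 marker genes of muscle, pharynx, hypodermis, neurons and germline was called at either dose, where 3.48% of all probesets were at 1 µg/ml and 0% at 100 ng/ml. At 1 µg/ml the means of all 5 muscle, 5 pharynx and 5 neuron genes were nevertheless higher with IVM, with medians of 0.20, 0.17 and 0.17 against -0.01 over all probesets, and *myo-2*, a pharyngeal myosin gene, was closest to a call in the pharynx list (0.33, SE 0.08, adjusted p = 0.0536 from limma). Their part in the intestinal changes was not tested. Without replicate 4 at 100 ng/ml, 1.52% of all probesets were called. The intestinal list genes among them were *mtl-1* (2.79, adjusted p = 0.000286 from limma), *ges-1* (0.59, adjusted p = 0.0220), *pho-1* (-0.76, adjusted p = 0.0460) and *spl-1* (-0.51, adjusted p = 0.0407), a sphingosine phosphate lyase. That pair was set apart by its *mtl-1* values, so the *mtl-1* call without it is no test. The other calls also rest on a pair left out after its response was seen.

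**Figure D4:**
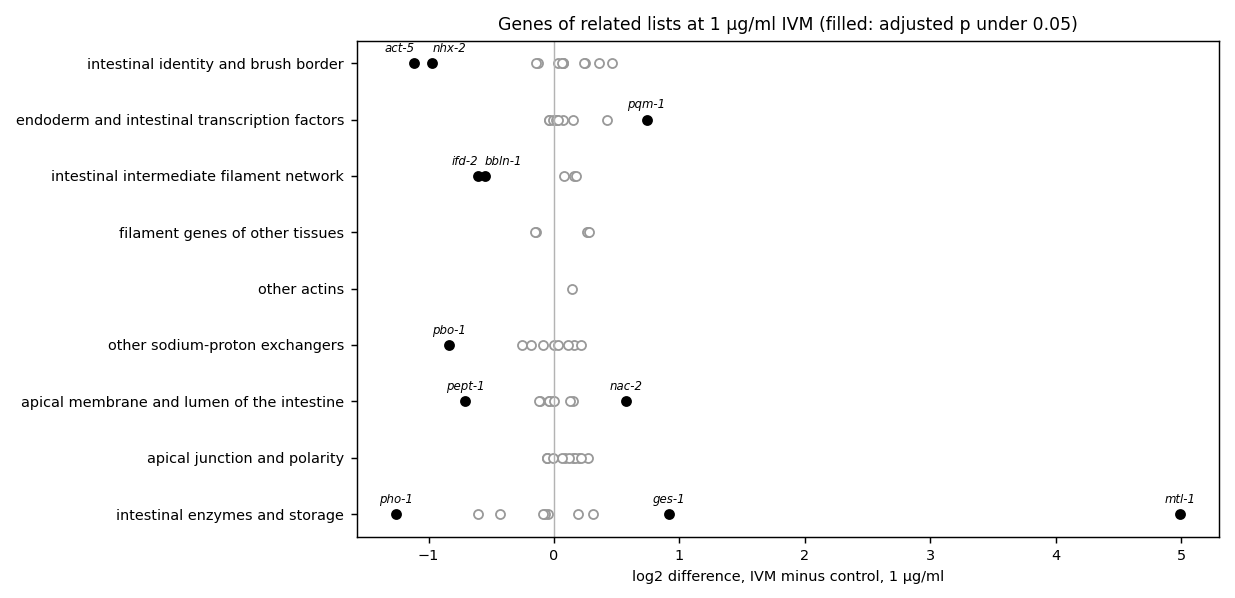
Log2 change at 1 µg/ml IVM of the 13 probesets (top row) and of the genes of 8 related lists, 1 point per gene, filled where the adjusted p was under 0.05. The called genes lie on both sides of 0 in the intestinal lists, from *pho-1* (-1.26) to *mtl-1* (4.99), and the junction genes lie close to 0.

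The probesets most like *elt-2* and *act-5* were found by the Pearson correlation over 20 arrays after the mean of each group was taken off. For *elt-2* these were *aqp-2*, an aquaporin (r = 0.96), *Y43E12A.2* (r = 0.96) and *F16F9.4* (r = 0.95). For *act-5* they were *irg-8* (r = 0.95), *dod-19* (r = 0.94) and *hphd-1*, an enzyme of propionate breakdown (r = 0.93). The arrays share suspensions in pairs, so these are descriptions with no test.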

How the data were processed

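RNA of 20 whole-worm samples was measured on Affymetrix *C. elegans* arrays. The deposited table holds log2 intensities that the authors made with RMA. Background and quantile steps of RMA make arrays alike in distribution, so levels are relative. Array medians were 5.58 to 5.71, values ran from 2.74 to 14.2, and no detection calls were given, so the number of arrays limits the precision. Groups were taken from titles and exposure labels. Of 20575 probesets, 12 spike-in controls were left out, with no filter on intensity. Names came from the platform table, which gives 19181 probesets 1 gene, 803 several and 579 none. For a list gene with several probesets, the one with the highest mean over 20 arrays was used.

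Changes were fitted with limma 3.58.1 in R 4.3.3 for each dose on 10 arrays with the replicate as a block, with Benjamini-Hochberg adjustment. The contrast of doses used 20 arrays and 10 blocks, and controls were compared unpaired. Suspensions were split between IVM and control plates, and arrays of a number correlated at r of 0.499 to 0.884 after the group means were taken off, while replicate 3 at 1 µg/ml (0.499 against 0.673) and replicate 5 at 100 ng/ml (0.729 against 0.815) had a higher r with another number. The labels call the replicates biological without saying whether their cultures were grown on separate days. Fits were tested on simulated data. Members and lists were chosen with earlier results of these data known. Named genes are all member probesets, up to 4 called genes per list at 1 µg/ml with the smallest p, and the 3 probesets most like *elt-2* and *act-5*, other genes being named beside a result they touch. Alternatives were no block, a single fit of 20 arrays, repeated quantile normalization, median centring, a filter at the median of the mean intensities, trended robust eBayes, an adjusted p under 0.10, left-out replicates and unpaired Rank Products with 100 permutations, the method the study names. Plots were drawn with matplotlib 3.10.9.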

Additional observations from a re-analysis of the deposited data

Results flagged for a closer look

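Of 52 groups of 5 arrays, 1 held a value far from the rest, a smaller share than the about 1 in 20 groups that chance gives. It was *ifc-2* by the dim probeset 171840_x_at in the 1 µg/ml controls, with 5.89 in replicate 1 against 5.52 to 5.57 in the other 4. By 193073_at the same array was also the highest of its group, at 8.86, with replicate 2 close at 8.46.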

How the results depend on the processing

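Of 500 values of single probesets under settings other than a left-out replicate, 480 kept direction and call, 2 changed sign, 15 lost a call and 3 gained one. Of 480 with a replicate left out, 430 kept both, 32 changed sign, 14 lost a call and 4 gained one. Without the replicate block, 64 probesets and 0 members were called at 1 µg/ml (715 and 2 with it) and 0 for the contrast of doses (1 with it), and with the block 0 members differed between controls. At an adjusted p under 0.10, 1234 were called at 1 µg/ml. Rank Products called 303 at 1 µg/ml, 268 of them among the 715, and 44 at 100 ng/ml. It called 2 and 0 members and did not call *pqm-1*, *bbln-1*, *ifd-2*, *pept-1* or *nac-2* at 1 µg/ml, and of the named genes called there only *mtl-1* was called without the block. With 1 replicate left out, 205 to 707 probesets and 1 to 2 members were called at 1 µg/ml (205 without replicate 1, 218 without replicate 4), 0 to 313 and 0 to 1 at 100 ng/ml (313 without replicate 4), and 0 to 4 and 0 for the contrast. Quantile normalization again turned *erm-1* for the contrast of doses to 0.0402 and *elt-2* between controls to 0.0484. Sign changes with a left-out replicate touched only uncalled values near 0. At 1 µg/ml these ran from -0.13 to 0.16 for *ifc-2* (171840_x_at), -0.26 to 0.00403 for *ifp-1*, -0.0241 to 0.0965 for *eps-8* (193765_at), -0.00216 to 0.19 (193793_s_at) and -0.00268 to 0.13 (193808_s_at). At 100 ng/ml they ran from -0.0407 to 0.0939 for *elt-2* and -0.000794 to 0.15 for *elt-7*. For the contrast they ran from -0.23 to 0.0671 for *ifc-2* (171840_x_at), -0.0354 to 0.23 for *ifp-1*, -0.18 to 0.0863 for *erm-1*, -0.12 to 0.0147 for *eps-8* (193765_at) and -0.19 to 0.0292 (193793_s_at). Between controls they ran from -0.18 to 0.0779 for *elt-2* and -0.0789 to 0.10 for *eps-8* (193808_s_at). The cause of these differences was not tested. With no background values, a dim probeset cannot be told from an absent transcript.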
